A study of Mus musculus with 6 samples.

Results

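The genes described are 9 components of gonadotropin, androgen-axis, inhibin and anti-Müllerian hormone signalling in the mouse testis, taken by gene symbol from a table of 45777 genes. They are the receptors Lhcgr, Fshr, Prlr and Amhr2, the inhibin and activin subunits Inha, Inhba and Inhbb, and the hormones Amh and Insl3. All 9 were in the table and all 9 passed the filter on low counts. Total RNA was sequenced from testes of genotype WT mice in 2 groups of 3 libraries. In the Ethanol-fed group the mice received ethanol in an LDC liquid diet over 16 weeks, and in the Control-fed group the control LDC liquid diet over the same period. Every mouse was offered 10 ml of diet a day and had 5 days of control diet beforehand. The labels used here name no strain, age or ethanol dose. They do not say whether each library is a different mouse, so the p-values measure only how far these samples spread, and that spread may be technical.

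Luteinizing hormone from the pituitary acts on Leydig cells, between the seminiferous tubules, through the receptor encoded by Lhcgr, and these cells answer with testosterone and with the peptide hormone INSL3. Follicle-stimulating hormone acts on Sertoli cells, inside the tubules, through the receptor encoded by Fshr, and Sertoli cells release inhibin B, a dimer of the inhibin alpha and beta-B chains, which restrains the secretion of that hormone. Dimers of beta chains without the alpha chain are activins, which have the opposite action on the pituitary. Anti-Müllerian hormone is made in quantity by immature Sertoli cells, and its gene is repressed by androgen at puberty.

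Total counts were 38935654 to 43399317 in the ethanol libraries and 43389811 to 47420249 in the control libraries. Markers of the main testis cell types were present, and of 14 Sertoli cell markers 8 had ethanol libraries all above control libraries, an order that 9.76% of all tested genes showed. Their summed level was 1086 to 1205 CPM (counts scaled to the library total) in ethanol libraries and 914.2 to 978.1 CPM in control libraries. Of 11 measured Leydig cell markers, 5 had an unadjusted p under 0.05 on the lower side, where 5.89% of all genes lay, and 2 on the higher side, where 7.45% lay. Their summed level was 409.2 to 598.0 CPM with ethanol and 523.2 to 559.6 CPM in controls. All 8 spermatocyte markers had log2 fold changes below 0, while 51.5% of all tested genes lay above 0. The sums of these 8 were 1707 to 1816 CPM with ethanol and 1926 to 1958 CPM in controls. Summed markers of erythroid cells were at 52.2 to 61.9 CPM with ethanol and 26.8 to 39.6 CPM in controls. Markers of adipose tissue were at 30.4 CPM in ethanol library 1 and at 16.3 and 17.7 CPM in ethanol libraries 2 and 3, against 12.7 to 18.9 CPM in controls. Among epididymis markers Lcn5 was at 0 and the sum was at most 0.922 CPM with ethanol and 1.04 CPM in controls. The part of these differences in the results below was not tested, and in bulk RNA fewer cells of a type and less RNA per cell cannot be told apart.

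None of the 9 genes passed the test over all genes. In the quasi-likelihood test of edgeR, their Benjamini-Hochberg adjusted p lay between 0.212 for Inhba and 0.945 for Lhcgr, and of the 25073 genes tested 0% were called higher and 0% lower with ethanol. In limma-voom 0 of the 9 were called as well. DESeq2 gave no adjusted p for Inhba and Amh, so it could not call them, and it did not call any other member. At an unadjusted p under 0.05 there were 2 of 9 members on the higher side, Inhba and Amhr2, where 7.45% of all genes lay, and 1 of 9 on the lower side, Amh, where 5.89% lay. By log2 fold change 5 members were above 0 and 4 below, with a median of 0.064 against 0.0065 over all tested genes. In 1 member, Inhba, all ethanol libraries lay above all control libraries, an order that 9.76% of all genes showed. In 0 members did all ethanol libraries lie below all control libraries, an order found in 9.01% of genes.

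**Figure D1:**
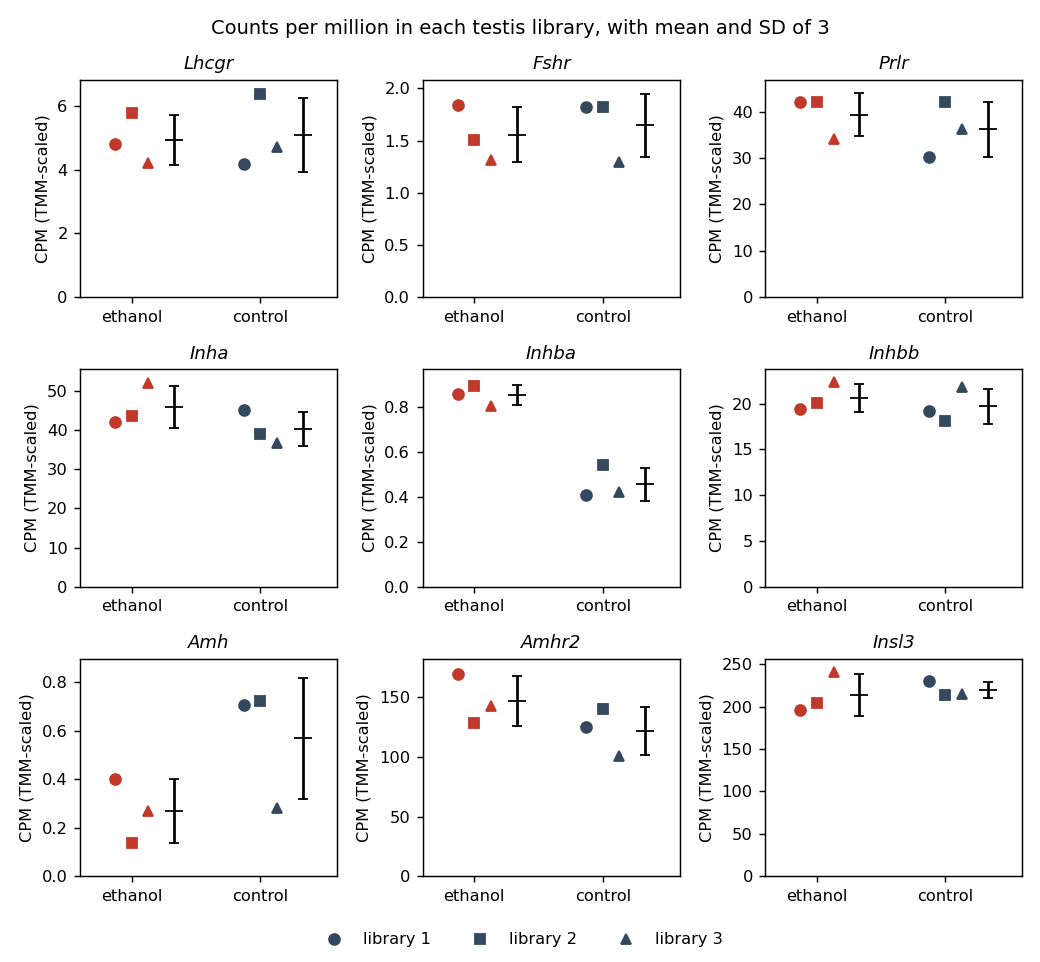
TMM-scaled CPM (y axis, from 0) of each of the 9 genes in the 3 ethanol libraries (red, left) and the 3 control libraries (dark blue, right), with marker shapes for libraries 1, 2 and 3 and a bar for mean ± SD. The groups are apart for Inhba, at 0.804 to 0.892 CPM with ethanol and 0.406 to 0.541 CPM in controls, and overlap for the other 8 genes.

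The members spanned several orders of magnitude in level, measured per transcript length in the authors' TPM. Insl3 was the most abundant at 710.3 ± 43.2 TPM with ethanol and 704.9 ± 42.0 TPM in controls (SD, n = 3), and only 139 genes of the table had a higher mean. Amhr2 followed at 147.5 ± 27.3 TPM with ethanol and 118.3 ± 25.9 TPM in controls, and Inha at 58.6 ± 4.04 TPM with ethanol and 49.9 ± 5.92 TPM in controls. Below these 3 genes, Inhbb and Prlr lay close together and then Lhcgr and Fshr, while Amh and Inhba were the lowest. Over the 6 libraries Inhbb averaged 9.07 TPM and Prlr 7.72 TPM with overlapping ranges, and Inhbb was the higher of the pair in 4 of 6 libraries. Lhcgr averaged 1.82 TPM and Fshr 1.30 TPM, again with overlapping ranges, and Lhcgr was the higher in 5 of 6 libraries. The ranges of all other neighbours in this order were apart. Amh averaged 0.297 ± 0.171 TPM with ethanol and 0.624 ± 0.302 TPM in controls, and Inhba 0.119 ± 0.0089 TPM with ethanol and 0.0616 ± 0.013 TPM in controls.

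The length that the authors' values assign to a gene was derived from the counts, the FPKM and the library totals. For Inhba it was 14745 to 16311 bases, where the longest of its 2 GENCODE transcripts has 6390 bases, so its TPM depends on a much longer model and its rank below Amh is uncertain. For Lhcgr the derived length differed between libraries, at 7019, 6388 and 5168 bases in ethanol libraries 1, 2 and 3 and 5495 to 5754 bases in controls, a ratio of highest to lowest of 1.36, where the median over genes with at least 100 counts in each library was 1.01. The other members had ratios between 1.01 and 1.16. Ethanol library 3 therefore had the lowest Lhcgr level of the ethanol group by counts, at 4.22 CPM, and not by TPM, at 1.68 against 1.56 TPM in ethanol library 1.

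Inhba encodes the beta-A chain of inhibin A and activin A. It lies on chromosome 13 from 16004256 to 16031609 (Gene ID 16323; RefSeq on GRCm38.p6, the assembly of mm10, for this and the following coordinates). Its read counts were 34, 39 and 33 in ethanol libraries 1, 2 and 3, and 19, 24 and 18 in control libraries 1, 2 and 3. On the CPM scale these were 0.856, 0.892 and 0.804 with ethanol and 0.406, 0.541 and 0.423 in controls, so that each ethanol library lay above each control library. Ethanol over control gave a log2 fold change of 0.89 (SE 0.27, 95% interval 0.29 to 1.49), with an unadjusted edgeR p of 0.0072 and an adjusted p of 0.212. Without 1 library at a time it lay between 0.81 and 1.03. On log2(TPM + 0.1), a scale that understates the change of low genes, it was 0.44. The spread within a diet was 9.26% of the mean, where counting error alone gives about 19.6%, so the libraries agreed more closely than such counts would on average.

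A transcribed pseudogene, B230303A05Rik, placed on the other strand by GENCODE, overlaps the RefSeq span of Inhba. The shared stretch runs from 16004256 to 16023423, where the span of Inhba ends at 16031609. Whether counting used the strand is not given in the labels. If it did not, reads of the 2 genes could not be told apart in the stretch they share. B230303A05Rik was at 1.01, 1.03 and 1.10 CPM in the ethanol libraries and at 0.791, 0.721 and 1.08 CPM in the control libraries. Its diets overlapped, and their difference was 0.27 on the log2 scale (SE 0.24; edgeR adjusted p = 0.675). The 250 bases before the transcript start that the RefSeq promoter table gives for Inhba and for Amhr2 are shown because these are the members with an unadjusted p under 0.05 on the higher side. They were taken from RefSeq on GRCm38.p6, plus strand, at chr13:16011601-16011850 for Inhba and chr15:102445117-102445366 for Amhr2, and capitals mark AAGGTCA, the core of a site for steroidogenic factor 1 (Nr5a1). Both starts lie inside the RefSeq gene spans given in the text and are the first base of the gene in GENCODE M21.
Inhba: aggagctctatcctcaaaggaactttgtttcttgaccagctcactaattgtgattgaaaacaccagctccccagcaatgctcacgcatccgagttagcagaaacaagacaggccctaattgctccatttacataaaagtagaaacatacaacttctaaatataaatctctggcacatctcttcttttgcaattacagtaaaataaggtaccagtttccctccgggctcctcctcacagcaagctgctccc
Amhr2: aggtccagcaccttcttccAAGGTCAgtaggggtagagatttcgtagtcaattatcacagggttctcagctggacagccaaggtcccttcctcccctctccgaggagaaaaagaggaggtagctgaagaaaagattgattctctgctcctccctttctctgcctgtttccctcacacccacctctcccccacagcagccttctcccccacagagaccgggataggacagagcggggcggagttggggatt

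In windows of 250 bases before to 50 bases after each start, 3 motifs were searched on both strands: AAGGTCA, the cAMP response element TGACGTCA, and AGATAA for GATA factors. Windows were found for 8 of the 9 members with 10 starts, 3 of them in Prlr, and Amh had no entry. AAGGTCA was found in 1 of these 10 windows, that of Amhr2, where it begins at base -231 from the start, and in 4.72% of all 32851 windows. TGACGTCA was found in 0 of 10 and in 1.79% of all windows, and AGATAA in 0 of 10 and in 11.2%. The window of Inha, at chr1:75507359-75507658, lay wholly inside the span of that gene. The bases before the span of Inha were therefore not searched, and these counts do not cover them. In the 250 bases shown, the G and C content was 43.2% for Inhba and 55.2% for Amhr2.

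Inhbb (Gene ID 16324; chromosome 1, 119415463 to 119422248), the beta-B chain that pairs with the alpha chain in the inhibin of adult males, was far more abundant than Inhba. It was at 19.4, 20.1 and 22.4 CPM in ethanol libraries 1, 2 and 3, and at 19.2, 18.1 and 21.8 CPM in control libraries 1, 2 and 3. The groups overlapped, and in both of them library 3 was the highest. Its log2 fold change was 0.064 (SE 0.096, 95% interval -0.15 to 0.27; edgeR adjusted p = 0.822), and it turned to -0.0066 without ethanol library 3.

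Inha (Gene ID 16322; chromosome 1, 75507077 to 75510366), the alpha chain found only in inhibins, was at 42.1, 43.6 and 52.0 CPM in ethanol libraries 1, 2 and 3. In control libraries 1, 2 and 3 it was at 45.2, 39.0 and 36.8 CPM. Control library 1 lay above ethanol libraries 1 and 2, so the groups overlapped, while ethanol library 3 was the highest of all. The fit gave a log2 fold change of 0.19 (SE 0.099, 95% interval -0.029 to 0.40; edgeR adjusted p = 0.445). It was 0.08 without ethanol library 3 and 0.27 without control library 1, with the fits without another library in between.

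Subunit ratios were computed on TPM in each library and compared by exact two-sided permutation tests, for which 0.1 is the smallest p that 3 against 3 libraries allow. There was about 0.0132, 0.0135 and 0.0112 Inhba for each Inhbb in ethanol libraries 1, 2 and 3. In control libraries 1, 2 and 3 there was 0.0061, 0.0090 and 0.0062. All ethanol libraries were above all controls, with a difference of 0.85 on the log2 scale (exact permutation p = 0.1, n = 3 each, the smallest possible), and this restates the difference in Inhba, since Inhbb overlapped. The ratio of Inha to the sum of both beta chains was 5.93, 5.99 and 6.44 with ethanol and 6.54, 5.94 and 4.72 in controls, a log2 difference of 0.11 (exact permutation p = 0.8, n = 3 each). That difference turned to -0.028 without control library 3. The level of the Inhba to Inhbb ratio carries the uncertainty of the Inhba length given above.

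**Figure D2:**
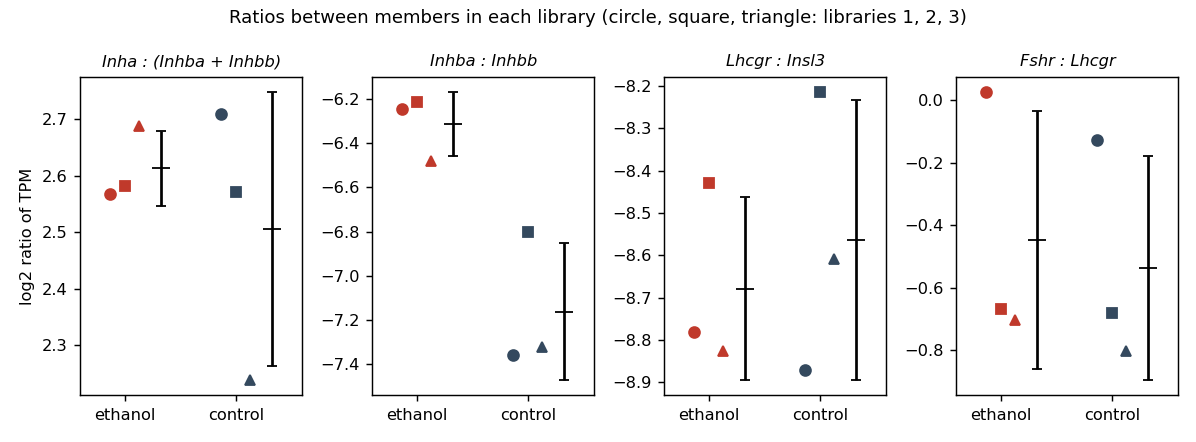
Log2 ratios of TPM (y axis) in the ethanol libraries (red, left) and control libraries (dark blue, right), with mean ± SD, for Inha to both beta chains, Inhba to Inhbb, Lhcgr to Insl3 and Fshr to Lhcgr. The groups are apart in the Inhba to Inhbb ratio, at -6.48 to -6.21 with ethanol and -7.36 to -6.80 in controls, and overlap in the other 3.

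Amh (Gene ID 11705; chromosome 10, 80805240 to 80807679) encodes anti-Müllerian hormone, which removes the Müllerian ducts of the male fetus. Its reads were few, with 16, 6 and 11 in ethanol libraries 1, 2 and 3, and 33, 32 and 12 in control libraries 1, 2 and 3. On the CPM scale these were 0.403, 0.137 and 0.268 with ethanol, and 0.705, 0.721 and 0.282 in controls. Control library 3 was level with ethanol library 3 and below ethanol library 1, while control libraries 1 and 2 were above every ethanol library. Ethanol over control, the log2 fold change was -1.09 (SE 0.47, 95% interval -2.12 to -0.069; edgeR unadjusted p = 0.0385, adjusted p = 0.343). Leaving out ethanol library 2 gave -0.77 and leaving out ethanol library 1 gave -1.49, and the fits without another library lay in between. The spread within a diet was 47.6% of the mean, where counting error gives about 26.7%.

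Amhr2 (Gene ID 110542; chromosome 15, 102445002 to 102454640) encodes the type 2 receptor of that hormone and is expressed in Sertoli and Leydig cells of the adult testis. It was at 169.7, 128.6 and 142.4 CPM in ethanol libraries 1, 2 and 3, and at 125.2, 139.7 and 100.4 CPM in control libraries 1, 2 and 3. Ethanol library 1 was the highest and control library 3 the lowest, and ethanol library 2 lay below control library 2. Its log2 fold change was 0.27 (SE 0.12, 95% interval 0.0075 to 0.53; edgeR unadjusted p = 0.0447, adjusted p = 0.360). It was 0.14 without control library 3, 0.15 without ethanol library 1 and 0.38 without control library 2. Within a diet the libraries spread by 15.2% of the mean, where counting error is about 1.33% and the median of 1647 genes of a like level is 5.50%; 96.8% of those genes spread less.

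The gonadotropin receptors had low levels and their diets overlapped. Lhcgr (Gene ID 16867; chromosome 17, 88716384 to 88792059), the luteinizing hormone receptor, was at 4.81, 5.79 and 4.22 CPM in ethanol libraries 1, 2 and 3, and at 4.17, 6.38 and 4.73 CPM in control libraries 1, 2 and 3. Library 2 was the highest of both diets. The log2 fold change was -0.042 (SE 0.18, 95% interval -0.43 to 0.35; edgeR adjusted p = 0.945), and it turned to 0.15 without control library 2 and to 0.052 without ethanol library 3.

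Fshr (Gene ID 14309; chromosome 17, 88984952 to 89200675), the receptor of follicle-stimulating hormone, was at 1.84, 1.51 and 1.32 CPM in ethanol libraries 1, 2 and 3, from 54 to 73 reads. In control libraries 1, 2 and 3 it was at 1.82, 1.83 and 1.29 CPM, from 55 to 85 reads. Library 3 was the lowest of both diets. Its log2 fold change was -0.085 (SE 0.21, 95% interval -0.56 to 0.38; edgeR adjusted p = 0.902), and it turned to 0.013 without ethanol library 3. The ratio of Fshr to Lhcgr on TPM was 1.02, 0.630 and 0.614 with ethanol and 0.915, 0.624 and 0.574 in controls, a log2 difference of 0.089 (exact permutation p = 0.6, n = 3 each). Its sign turned without ethanol library 1, to -0.15, without control library 3, to -0.043, and on CPM in place of TPM, to -0.044.

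Prlr (Gene ID 19116; chromosome 15, 10177238 to 10349190), the prolactin receptor, is expressed in Leydig cells, where prolactin acts together with luteinizing hormone in rodents. It was at 42.0, 42.1 and 34.0 CPM in ethanol libraries 1, 2 and 3, and at 30.2, 42.0 and 36.3 CPM in control libraries 1, 2 and 3. Control library 1 was the lowest, and control library 2 was level with ethanol libraries 1 and 2. The log2 fold change was 0.12 (SE 0.12, 95% interval -0.14 to 0.38; edgeR adjusted p = 0.706), and it turned to -0.00069 without control library 1. The spread within a diet was 14.1% of the mean, and 94.4% of 2850 genes of a like level spread less.

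Insl3 (Gene ID 16336; chromosome 8, 71689252 to 71690577) encodes the Leydig cell hormone that guides descent of the testis in the fetus. It was at 195.7, 203.9 and 241.2 CPM in ethanol libraries 1, 2 and 3, and at 230.1, 213.7 and 215.2 CPM in control libraries 1, 2 and 3. The ethanol libraries held both the lowest and the highest values, with the controls between. Its log2 fold change was -0.040 (SE 0.079, 95% interval -0.21 to 0.13; edgeR adjusted p = 0.872), and it turned to 0.019 without ethanol library 1 and to 0.011 on log2(TPM + 1). Insl3 lies within the span of Jak3, on the same strand, so that some reads cannot be assigned; Jak3 had 389 to 581 reads in a library and Insl3 7772 to 10765. The ratio of Lhcgr to Insl3 on TPM had a log2 difference of -0.12 (exact permutation p = 0.7, n = 3 each), which turned to 0.061 without control library 2 and to 0.012 on CPM.

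**Figure D3:**
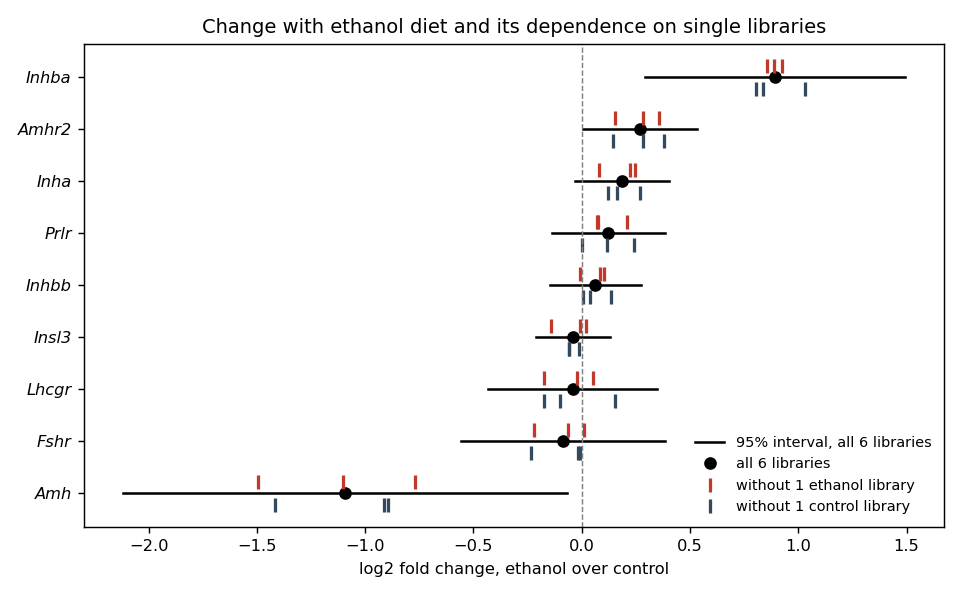
Log2 fold change of ethanol over control (x axis) for the 9 genes, with all 6 libraries (black points with 95% intervals) and without each ethanol library (red ticks) or control library (dark blue ticks). The interval lies above 0 for Inhba and Amhr2 and below 0 for Amh, before adjustment for the 25073 genes tested, and ticks fall on both sides of 0 for Prlr, Inhbb, Insl3, Lhcgr and Fshr.

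Members were also read against markers of the cell type known for them, as the log2 CPM of the member minus the mean log2 CPM of the markers, with no member among the markers. The mean of 14 Sertoli cell markers was 4.52, 4.53 and 4.48 log2 CPM with ethanol and 4.24, 4.34 and 4.23 log2 CPM in controls, a difference of 0.24 (exact permutation p = 0.1, n = 3 each, the smallest possible). Relative to them Fshr was lower by 0.32 on average with ethanol, at -3.60, -3.89 and -4.04 with ethanol and -3.34, -3.44 and -3.81 in controls (exact permutation p = 0.2, n = 3 each). Differences, ethanol minus control, were -0.18 for Inhbb (exact permutation p = 0.2) and -0.054 for Inha (exact permutation p = 0.5). Amh differed by -1.20 (exact permutation p = 0.2) and Amhr2 by 0.034 (exact permutation p = 0.9). The groups overlapped in each of these 5 genes. Amhr2 is also expressed in Leydig cells, whose marker mean differed by -0.18, and it was not read against those markers. The Inhbb difference was -0.081 without control library 3 and -0.27 without control library 2. The Inha difference turned to 0.0093 without ethanol library 1 and to 0.047 without control library 1, and the Amhr2 difference to -0.071 without ethanol library 1, to -0.079 without control library 3 and to -0.071 against the median of the markers.

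The mean of 11 Leydig cell markers was 4.87, 5.06 and 4.69 log2 CPM with ethanol and 5.08, 5.06 and 5.02 log2 CPM in controls, a difference of -0.18 (exact permutation p = 0.3, n = 3 each). Relative to them Lhcgr differed by 0.14 (exact permutation p = 0.5) and Insl3 by 0.13 (exact permutation p = 0.8), with overlap in both. The Lhcgr difference turned to -0.0025 without control library 1 and the Insl3 difference to -0.051 without ethanol library 3. The 11 markers went in both directions. Cyp11a1, the enzyme that starts steroid synthesis from cholesterol, averaged 23.5 CPM with ethanol and 58.1 CPM in controls. Hsd3b6, a steroid dehydrogenase of Leydig cells, averaged 65.5 CPM with ethanol and 44.7 CPM in controls.

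**Figure D4:**
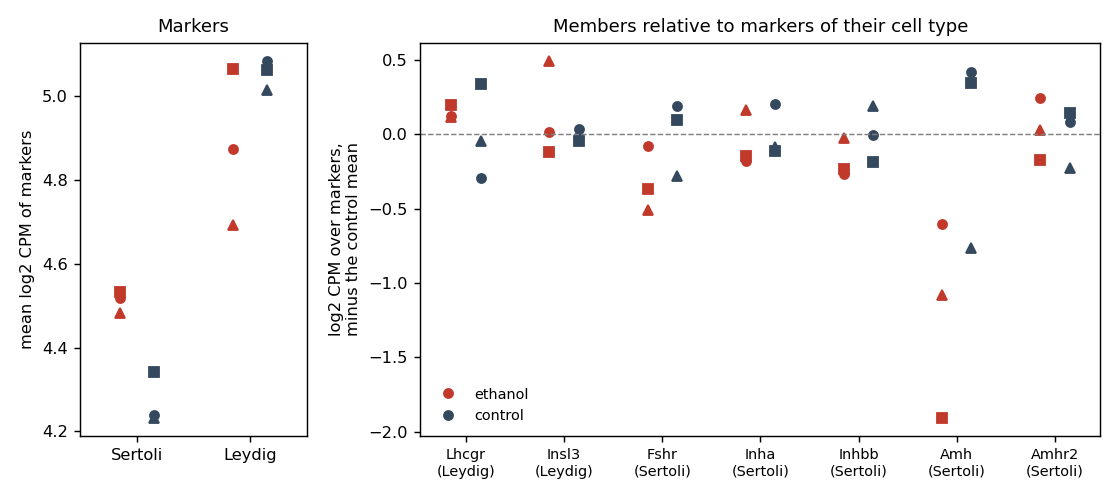
Left, mean log2 CPM of the Sertoli and Leydig cell markers in each ethanol library (red) and control library (dark blue), with shapes for libraries 1, 2 and 3. Right, log2 CPM of 7 members over the markers of their cell type, minus the control mean of that gene; the groups overlap for all 7, and Amh in ethanol library 2 is the lowest point.

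The other genes of these pathways were read from lists of ligands, receptors, signal carriers and regulators, and 0 of their tested members passed edgeR's adjusted p of 0.05. The pituitary hormones themselves were close to absent. Fshb, the beta subunit of follicle-stimulating hormone, had 0 reads in the 6 libraries together, which allows up to 0.0116 CPM (3 counts over the 6 libraries, counting error only). The common alpha subunit Cga had 6 reads and prolactin, Prl, 4 reads in all. Lhb, the beta subunit of luteinizing hormone, was an exception at 30.1, 27.7 and 27.7 CPM in ethanol libraries 1, 2 and 3, and 33.02, 33.6 and 35.4 CPM in control libraries 1, 2 and 3. All ethanol libraries lay below all controls, a difference of -0.26 on the log2 scale (SE 0.073, edgeR adjusted p = 0.188). Gnrh1, the releasing hormone of the gonadotropins, was at 1.17 ± 0.45 CPM with ethanol and 0.668 ± 0.13 CPM in controls (SD, n = 3) with overlap. A long noncoding RNA gene, Gm52126, with 44 to 102 reads in a library, shares the stretch from 67749220 to 67749440 with Gnrh1. It is not known whether reads of that stretch were kept apart.

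Among 23 genes of cAMP signalling, which carries the message of both gonadotropin receptors, 3 had an unadjusted p under 0.05, all on the higher side, and the median log2 fold change was 0.022. Over all tested genes 7.45% lay on the higher side and 13.3% on either side, so this share is near the background. They were the phosphodiesterase Pde4d, the adenylyl cyclase Adcy9 and the stimulatory G protein Gnas. Pde4d averaged 12.9 ± 2.86 CPM with ethanol and 9.01 ± 1.17 CPM in controls (SD, n = 3; edgeR adjusted p = 0.215). Adcy9 was at 22.7 ± 2.21 CPM with ethanol and 18.5 ± 2.31 CPM in controls, and Gnas at 73.2 ± 1.55 CPM with ethanol and 66.1 ± 3.10 CPM in controls. Gnas lies over the antisense gene Gnasas1, and since the strand setting of the counting is not given, it is not known whether their reads were kept apart. Adcy5, another cyclase, differed by 0.34 on the log2 scale (SE 0.16), and by 0.21 without ethanol library 1 and 0.22 without control library 3. For Adcy9 the log2 fold change of 0.30 was 0.20 without control library 1.

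In the list of activin and inhibin receptors, binding proteins and SMADs 14 of 17 genes were tested, 3 had an unadjusted p under 0.05 on the higher side (7.45% of all genes) and 2 on the lower (5.89% of all genes), and the median log2 fold change was 0.081. Tgfbr3, betaglycan, the co-receptor through which inhibin blocks activin, was at 39.1, 29.9 and 29.8 CPM in ethanol libraries 1, 2 and 3, and at 25.6, 29.6 and 24.1 CPM in control libraries 1, 2 and 3. Its groups were apart by a small margin, a difference of 0.32 on the log2 scale (SE 0.12, edgeR adjusted p = 0.274) that was 0.17 without ethanol library 1. The type 1 receptor Acvr1c averaged 2.57 ± 0.62 CPM with ethanol and 1.75 ± 0.27 CPM in controls, a log2 fold change of 0.55 that was 0.34 without ethanol library 1, and the signal carrier Smad2 35.8 ± 2.39 CPM with ethanol and 31.4 ± 1.38 CPM in controls. On the lower side stood Fst, follistatin, which binds and blocks activin, at 0.327, 0.434 and 0.317 CPM with ethanol and 0.620, 0.518 and 0.729 CPM in controls. Its log2 fold change was -0.78 (SE 0.32, 95% interval -1.48 to -0.086, edgeR adjusted p = 0.319). Fst lay below 1 CPM in every library, and DESeq2 gave it no adjusted p. Foxh1, a partner of SMAD proteins picked out with its values known, differed by -0.31 on the log2 scale (SE 0.13). The type 2 receptors of activin differed by 0.31 (SE 0.15) for Acvr2b and -0.035 (SE 0.077) for Acvr2a, both with overlap. The beta chains Inhbc and Inhbe had 0 reads.

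Among the type 1 receptors and SMADs through which anti-Müllerian hormone signals, 10 genes were tested, with 1 at an unadjusted p under 0.05 on each side, near the 7.45% higher and 5.89% lower of all genes, and a median log2 fold change of -0.00079. Bmpr1a, one of the type 1 partners of Amhr2, was at 39.8, 42.8 and 43.0 CPM in ethanol libraries 1, 2 and 3, and at 34.9, 33.8 and 32.8 CPM in control libraries 1, 2 and 3. Its groups were apart, a difference of 0.31 on the log2 scale (SE 0.069, edgeR adjusted p = 0.153). DESeq2 called it, with an adjusted p of 0.0284, where edgeR did not. Smad1 averaged 15.1 ± 0.90 CPM with ethanol and 17.5 ± 1.51 CPM in controls (SD, n = 3). Smad6 and Smad1 had log2 fold changes of -0.22 and -0.21, and that of Smad6 was -0.14 without ethanol library 2. Bmpr1b was low, at 0.559 ± 0.14 CPM with ethanol and 0.871 ± 0.19 CPM in controls. Its log2 fold change was -0.64 (SE 0.30, 95% interval -1.28 to 0.013).

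Of 7 regulators of the Amh gene, 3 had an unadjusted p under 0.05, all on the higher side, where 7.45% of all genes lay, and the median log2 fold change was 0.22. Nr5a1, steroidogenic factor 1, was at 25.9, 30.5 and 29.5 CPM in ethanol libraries 1, 2 and 3, and at 23.3, 22.6 and 24.3 CPM in control libraries 1, 2 and 3 (log2 fold change 0.29, SE 0.084, edgeR adjusted p = 0.189). The zinc finger factors Gata4 and Wt1 had log2 fold changes of 0.28 (SE 0.10) and 0.22 (SE 0.082), and Sox9 0.23 (SE 0.15) with overlap. Wt1 was at 0.15 without control library 3, and Sox9 at 0.076 without ethanol library 2. The summed CPM of the 7 genes was 125.8 to 131.5 with ethanol and 107.0 to 118.2 in controls. Amh itself had the opposite sign, as given above, and 4 of the 7, Sox9, Sox8, Wt1 and Dmrt1, are also in the list of Sertoli cell markers and Nr5a1 in that of Leydig cells.

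Of the listed genes known to respond to androgen in Sertoli cells, Corin, Tubb3 and Eppin had the smallest unadjusted p and are described first. Corin, a serine protease, was at 51.7 ± 0.17 CPM with ethanol and 46.1 ± 0.58 CPM in controls (SD, n = 3). Its ethanol libraries all lay above the controls, an order that 9.76% of all tested genes showed, and the log2 fold change was 0.17 (SE 0.062, edgeR adjusted p = 0.282). Eppin and Tubb3 had log2 fold changes of 0.18 (SE 0.085) and 0.21 (SE 0.098). The diets overlapped in Tubb3, whose log2 fold change was 0.10 without ethanol library 3. In the same list, Drd4 had a log2 fold change of -0.44 (SE 0.23), Rhox5 0.12 (SE 0.11) and Cldn3 0.069 (SE 0.15). Drd4, Rhox5 and Cldn3 each had overlapping diets.

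The INSL3 receptor Rxfp2 was at 15.01, 16.2 and 13.6 CPM in ethanol libraries 1, 2 and 3, and at 17.3, 16.4 and 17.3 CPM in control libraries 1, 2 and 3, so that the groups were apart by a small margin (log2 fold change -0.19, SE 0.093, edgeR adjusted p = 0.423). On log2(TPM + 1) its sign turned to 0.068. Insl6, a relaxin family gene of germ cells, was at 103.8 ± 3.16 CPM with ethanol and 102.7 ± 8.02 CPM in controls, and the relaxin receptor Rxfp1 at 0.321 ± 0.046 CPM with ethanol and 0.345 ± 0.15 CPM in controls (SD, n = 3). Rln1 had 0 reads.

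Of 12 genes of prolactin receptor signalling, 3 had an unadjusted p under 0.05 on the higher side and 1 on the lower, where 7.45% and 5.89% of all genes lay, with a median log2 fold change of 0.099. Stat3, a transcription factor of many cytokine receptors, was at 36.4, 33.9 and 34.7 CPM in ethanol libraries 1, 2 and 3, and at 28.9, 26.7 and 26.8 CPM in control libraries 1, 2 and 3. Its groups were apart, a difference of 0.35 on the log2 scale (SE 0.073, edgeR adjusted p = 0.145), and DESeq2 called it with an adjusted p of 0.0135. The kinase Jak2 averaged 17.8 ± 1.21 CPM with ethanol and 15.2 ± 0.39 CPM in controls, and the phosphatase Ptpn11 38.7 ± 3.44 CPM with ethanol and 33.2 ± 1.59 CPM in controls. Socs7, a suppressor of cytokine signalling, was at 229.1 ± 11.6 CPM with ethanol and 252.1 ± 8.22 CPM in controls. The factors most closely tied to the prolactin receptor, Stat5a and Stat5b, had log2 fold changes of -0.058 (SE 0.19) and 0.060 (SE 0.13).

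**Figure D5:**
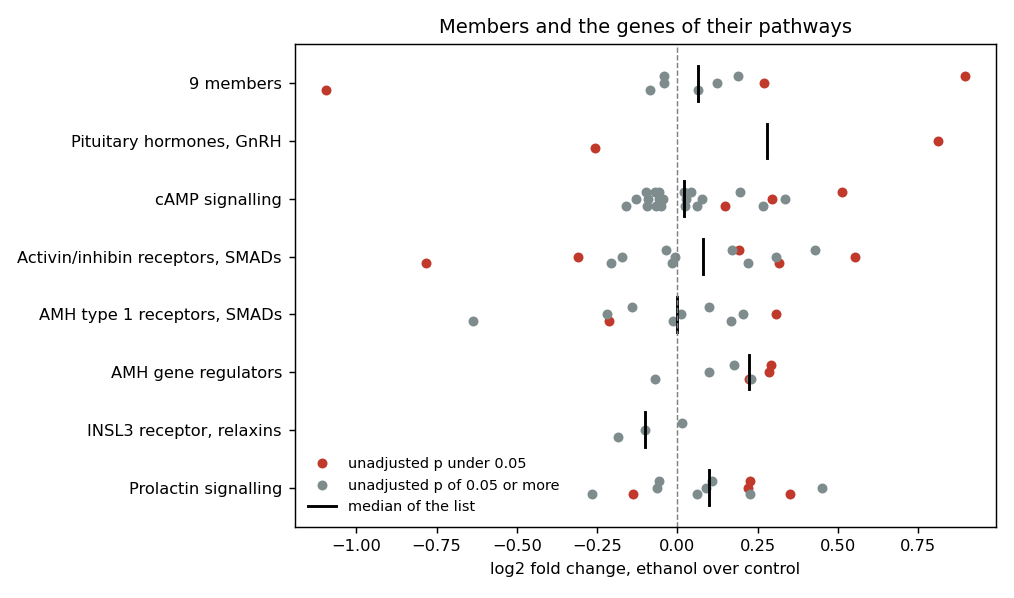
Log2 fold change of ethanol over control (x axis) for the 9 members and for the tested genes of 7 pathway lists (rows), each point 1 gene, red at an unadjusted p under 0.05 and grey otherwise, with a black line at the median. Medians lie between -0.10 for the INSL3 receptor and relaxins and 0.28 for the list of pituitary and releasing hormones. The first rests on 3 tested genes, and the second is the midpoint of 2, Lhb at -0.26 and Gnrh1 at 0.81.

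The genes whose pattern over the 6 libraries was most like that of each member were found by Pearson correlation of log2 CPM among 11051 genes of at least 5 CPM. With 6 libraries and so many genes some high values arise in any case, so these values describe shared library-to-library variation. For Amhr2 the 3 most alike were Luc7l (r = 0.995), Vcl (r = 0.993) and Tbc1d8 (r = 0.988). For Inhbb they were Uqcr11 (r = 0.993), Xrcc6 (r = 0.992) and Sgf29 (r = 0.991), for Inha Slc35b2 (r = 0.990), Zfy1 (r = 0.975) and Sorl1 (r = 0.974), and for Insl3 Gpx1 (r = 0.992), Set (r = 0.989) and Rbmxl1 (r = 0.988). Of those for Prlr, 2 were Golph3l (r = 0.989) and Trim59 (r = 0.977), and for Fshr they were Egr3 (r = 0.990), Rtn4ip1 (r = 0.987) and Clptm1l (r = 0.986). For Lhcgr they were Zfp781 (r = 0.980), Ttc19 (r = 0.977) and Nr2c1 (r = 0.971). On log2(TPM + 0.1) these were at 0.8365, 0.359 and 0.620. On that scale Set and Rbmxl1 were at 0.810 and 0.810 for Insl3, and Sorl1 at 0.782 for Inha. The other genes named here were at 0.960 or more. The derived length varies for Lhcgr, and its part in these values was not tested. Inhba and Amh, below 1 CPM, were not compared in this way.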

How the data were processed

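Testis total RNA was depleted of ribosomal RNA and made into stranded libraries, per the labels' protocols. The submitters' processing notes name HISAT2 and the mouse build mm10. No source used here gives the aligner's version, the counting tool, its strand setting or the annotation. The deposited table holds raw read counts per gene, FPKM and TPM, each named in its columns per the file headers. The authors computed FPKM and TPM. Every row named a gene, and 0 sample columns lay outside the 6 libraries.

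Counts were tested with edgeR 4.0.16 in R 4.3.3: genes kept by filterByExpr, TMM scaling, the quasi-likelihood F-test between diets with no covariate, and Benjamini-Hochberg adjustment over 25073 genes. The biological coefficient of variation was 0.102. CPM values are TMM-scaled, except sums over marker and regulator lists, which are scaled to total counts. Each standard error is the fold change divided by the root of its F value. Ratios and marker-relative values were compared by exact permutation over libraries with scipy 1.17.1. The procedure was tested on simulated data. Chi-square per gene was at least 7.66 in each of 15 library pairs, above sampling noise, so each library counted as 1 sample. It ran from 7.66 to 18.3 within a diet and from 8.96 to 26.2 between diets, with overlap.

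Members, lists and the naming rule were chosen with earlier results of these data known. The rule named all members, up to 4 genes of smallest p from each list, 7 fixed genes, and the 3 most alike genes of each member with at least 1 CPM. Outside it, Foxh1, Stat5a, Stat5b, Cyp11a1, Hsd3b6, B230303A05Rik, Jak3, Gnasas1, Gm52126, Sox8, Dmrt1, Drd4, Rhox5, Cldn3 and genes with few or 0 reads were named after their values were seen. Some genes that the rule named, and the counts over 1 pathway list, are not reported here. Alternatives were RLE, upper-quartile and no scaling factors, other filters, DESeq2 1.42.0, limma-voom and limma-trend on log2(TPM + 1) and log2(TPM + 0.1) (limma 3.58.1), the replicate number as a block, and each library left out.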

Additional observations from a re-analysis of the deposited data

How the results depend on the processing

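None of the 9 members was called under any alternative run that gave it an adjusted p. Inhba, Amh, Amhr2 and Inha kept their direction in each run that included them. Inhba and Amh did not pass the filter of 1 CPM in 3 libraries, and DESeq2 gave them no adjusted p. Over all genes, edgeR called 0 higher and 0 lower, with 3343 at an unadjusted p under 0.05. Counts of genes called higher and lower were 203 and 127 with DESeq2, 3 and 2 with limma-voom, 5 and 10 with the replicate block, 4 and 1 at an adjusted p of 0.1, and 0 to 1 and 0 to 2 without 1 library. Genes called higher were 2 with upper-quartile factors and 2 with the filter of 1 CPM in 3 libraries, with 0 lower in both. The correlations of deviations in same-numbered libraries were -0.143, 0.029 and 0.417 over 13229 genes. Between libraries of different numbers they ran from -0.449 (ethanol 3, control 2) to 0.466 (ethanol 1, control 2), so the numbers did not mark the most alike libraries throughout. With the replicate block the log2 fold change of Inhba was 0.90 (adjusted p = 0.237), and no member changed its call.

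Without 1 library, log2 fold changes ranged from -0.18 to 0.15 for Lhcgr, -0.24 to 0.013 for Fshr, -0.0066 to 0.14 for Inhbb, -0.14 to 0.019 for Insl3, -0.00069 to 0.24 for Prlr, -0.41 to 0.17 for Rxfp1, -0.049 to 0.043 for Insl6 and -0.079 to 0.012 for Acvr2a. On log2(TPM + 1) and log2(TPM + 0.1) the sign turned for Insl3 (0.011 and 0.011), Rxfp2 (0.068 and 0.076), Rxfp1 (0.0039 and 0.035) and Acvr2a (0.020 and 0.021), on scales where the median of all genes was 0.044 and 0.058. On CPM in place of TPM the difference in the Lhcgr to Insl3 ratio was 0.012 and in the Fshr to Lhcgr ratio -0.044, and against the median of the markers that of Amhr2 was -0.071; the cause was not tested. Without 1 library the log2 differences ranged from -0.028 to 0.21 for the ratio of Inha to both beta chains, from -0.27 to 0.061 for the ratio of Lhcgr to Insl3, from -0.15 to 0.29 for the ratio of Fshr to Lhcgr, from -0.0025 to 0.31 for Lhcgr over Leydig cell markers, from -0.051 to 0.26 for Insl3 over Leydig cell markers, from -0.16 to 0.047 for Inha over Sertoli cell markers, from -0.079 to 0.14 for Amhr2 over Sertoli cell markers. Depth limits Amh and Inhba most, with 6 to 39 reads in a library.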
